A study of Mus musculus with 16 samples.

Results

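The collagen gene family was examined in RNA from the mouse cortex after peripheral LPS or PBS given at 2 times of day (TOD). Its members were taken as every gene in the deposited table whose symbol has the form Col, a number, a and a number. This gave 44 genes of 55487, which fell into 6 type IV chains, 11 fibrillar chains and 27 chains of other classes. A member was tested when it reached 1 CPM, the reads on a gene for every 1000000 reads on all genes, in at least 3 of the 16 samples, and 43 of the 44 did. The exception was Col9a1, a chain of type IX collagen, with group means of 0.212 to 0.416 CPM.

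The samples were whole cortex from male C57Bl6 mice, wild type throughout and 2 months old. Mice received LPS, the bacterial lipopolysaccharide that activates TLR4, at 2 mg/kg or PBS as the vehicle control, by i.p. injection on 2 consecutive days. Injections were given at ZT1, shortly after the lights came on, or at ZT13, shortly after they went off. The tissue was taken 24 hours after the last injection. Sampling thus fell at the TOD of injection, and effects of the 2 cannot be told apart. Each TOD had 3 PBS-treated and 5 LPS-treated mice, with between 20251840 and 29112758 reads on genes per sample. The p-values below measure the spread between these mice. Markers of cortical excitatory neurons were present in every sample, with 7 of 7 genes measured and a summed level of 1744 to 2050 CPM. Those of the choroid plexus, tissue that is not cortex, ranged from 12.2 to 971 CPM in sum, with the lowest and the highest values in the PBS groups. Gfap and Lcn2, genes of reactive astrocytes, separated LPS from PBS at both times, and the log2 fold change of Gfap for LPS was 2.64 in the ZT1 groups.

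Collagens are secreted proteins in which chains built on a repeat of glycine and any 2 other residues (Gly-X-Y) wind into a triple helix. Type IV chains form the sheet-like network of basement membranes. In brain, that network underlies the endothelium and surrounds pericytes, and the heterotrimer of the chains encoded by Col4a1 and Col4a2 is its main collagen. Fibrillar chains assemble into banded fibrils, in brain mostly in meninges and around larger vessels, and the other classes decorate fibrils, form beaded filaments or short-chain nets, or span the plasma membrane.

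The difference in architecture was plain in the translated reading frames of the annotated transcripts (GENCODE M21, GRCm38). A run was counted where at least 5 Gly-X-Y triplets followed each other without a break. The 11 fibrillar chains had 2 or 3 runs each, and the longest run in each chain held 216 to 344 triplets. The 6 type IV chains had 22 to 27 runs each, and no run was longer than 66 triplets. Col4a1 was predicted to be 1669 residues long with 22 runs, and Col4a2 1707 residues with 24. At the other end, Col12a1, a fibril-associated collagen with interrupted helices (FACIT), kept 8.1% of its 3065 residues in such runs.

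**Figure D1:**
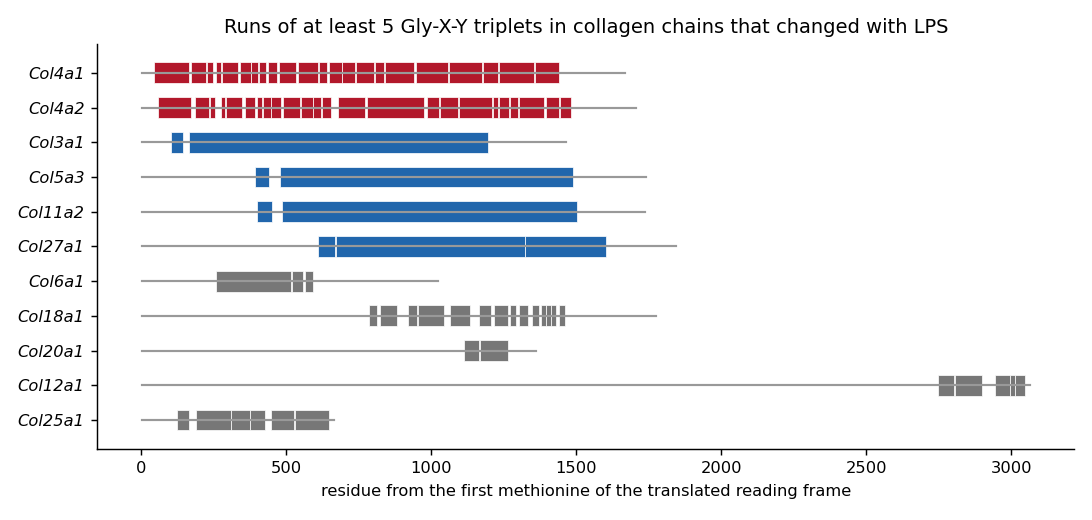
Runs of at least 5 uninterrupted Gly-X-Y triplets (bars) along 11 collagen chains called for LPS, with the residue number on the x axis and a line for the whole chain. The type IV chains Col4a1 and Col4a2 (red) carry 22 and 24 short runs, whereas Col3a1 (blue, fibrillar) has 2, the longer of 344 triplets.

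The type IV genes lie in 3 head-to-head pairs, each transcribed outward from neighbouring starts. Col4a1 (ENSMUSG00000031502) occupies chr8:11198423-11312826 on the minus strand and Col4a2 (ENSMUSG00000031503) chr8:11312805-11449287 on the plus strand, so that their first exons overlap by 22 bases. Col4a4 and Col4a3 on chromosome 1 are 71 bases apart, and Col4a6 and Col4a5 on the X chromosome 1308 bases apart. The shared bases of Col4a1 and Col4a2 are shown because no other 2 members overlap. They are part of the 5′ UTR of both genes, at chr8:11312805-11312826 of GRCm38.p6 (RefSeq), and are written 5′ to 3′ on the Col4a1 strand with a GC box (CCGCCC, or GGGCGG on the other strand) in capitals.
Col4a1 and Col4a2 overlap: ttggagacgCCGCCCgcgcact
Reads from these 22 bases cannot be assigned to a gene without strand, and whether strand was used in counting is not given in the sources used here. The bases are a small part of the 7464 exonic bases of Col4a1 and the 6619 of Col4a2.

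The 2 fibrillar genes that rose most with LPS, Col3a1 and Col5a3, are shown by sequence. Their 250 bases upstream of the RefSeq start are given below, Col3a1 from chr1:45311288-45311537 (plus strand) and Col5a3 from chr9:20815068-20815317 (minus strand) of GRCm38.p6. The capitals in Col3a1 mark the letters of a TATA box (TATAAA), whose first base is at -117 from the start. In Col5a3 they mark 1 CCAAT box (the letters CCAAT) and then, at 2 places, a GC box that reads GGGCGG on the opposite strand. Each motif was sought on both strands.
Col3a1 upstream: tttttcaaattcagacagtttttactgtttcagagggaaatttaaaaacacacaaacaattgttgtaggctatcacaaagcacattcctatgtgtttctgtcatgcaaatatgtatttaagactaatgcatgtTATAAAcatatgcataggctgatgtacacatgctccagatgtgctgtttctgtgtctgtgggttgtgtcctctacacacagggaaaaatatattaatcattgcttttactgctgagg
Col5a3 upstream: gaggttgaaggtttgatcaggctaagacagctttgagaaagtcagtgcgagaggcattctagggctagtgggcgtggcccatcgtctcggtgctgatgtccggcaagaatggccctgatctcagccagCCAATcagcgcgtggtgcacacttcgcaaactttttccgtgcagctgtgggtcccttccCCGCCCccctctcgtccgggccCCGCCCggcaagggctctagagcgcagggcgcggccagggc
The window of 250 bases before to 50 after the RefSeq start was available here for 35 of the 44 members. Of these 35, 22 contained a GC box on either strand, which 35.7% of all 32851 promoter windows contained. A CCAAT box was found in 13 members (37.4% of all windows) and TATAAA in 5 (13.6%). The canonical E-box CACGTG, the letters bound by the clock factors BMAL1 and CLOCK, was in 0 of the 35 members and in 7.2% of all windows.

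The question asked of the family first was which chains responded to LPS at each time. At ZT1, 9 of 43 collagen genes were called at an adjusted p under 0.05 in limma, 6 higher and 3 lower after LPS. Over all genes tested the share called was 16.2%, with 11.1% higher and 5.15% lower. At ZT13, 14 of 43 were called, 12 higher and 2 lower, against 28.6% of all genes, 19.2% higher and 9.4% lower. The median log2 fold change was 0.13 over the collagens and 0.04 over all genes at ZT1, and 0.11 and 0.05 at ZT13. As a share of the family, calls were thus close to the background, and what set single chains apart was the size of their change. Scaling affected the direction of small changes. With quantile normalization the median of all genes moved from 0.05 to -0.06 at ZT13 and the collagens split into 10 higher and 9 lower, while at ZT1 the split was 5 and 7. Of all genes called at ZT13, 67.2% were higher as deposited, 50.1% with median-of-ratios factors and 45.0% with quantile normalization, and at ZT1 68.2%, 54.4% and 51.1%. Each member described below as called kept its direction under both scalings.

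**Figure D2:**
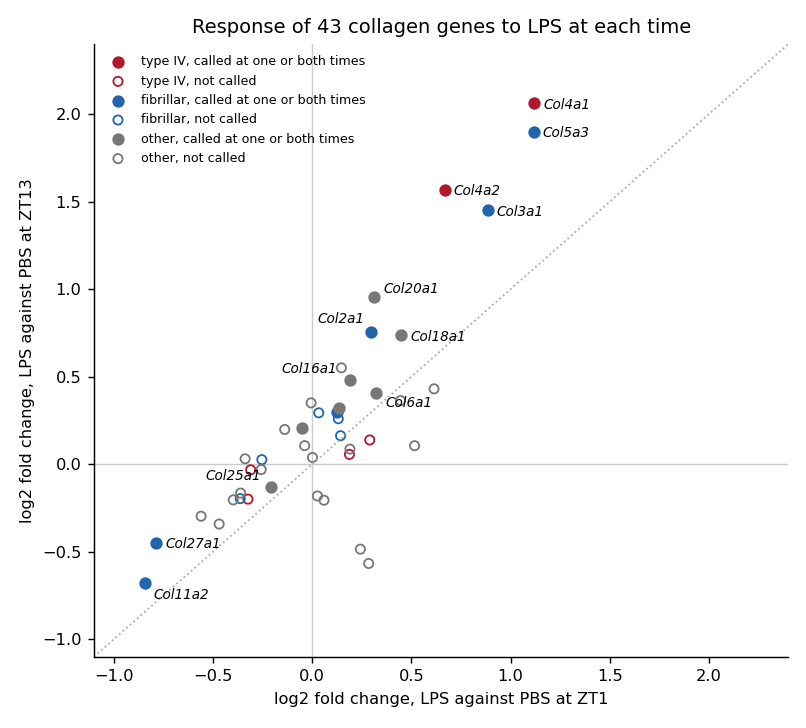
Log2 fold change of LPS against PBS at ZT1 (x axis) and at ZT13 (y axis) for the 43 collagen genes tested, by class, filled where called at either time, with a dotted line of equal change. Col4a1, Col5a3, Col4a2 and Col3a1 sit apart at the upper right, above the line, and Col11a2 and Col27a1 at the lower left.

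Col4a1, which supplies 2 of the 3 chains of the main vascular type IV trimer, was the collagen that changed most at ZT13. It measured 58.2, 66.1 and 60.5 CPM in the PBS-treated mice at ZT1 and 167, 116, 134, 144 and 117 CPM in the LPS-treated mice. At ZT13 its level was 44.3, 45.6 and 49.5 CPM after PBS, and 178, 193, 200.4, 208 and 198 CPM after LPS. Every LPS-treated mouse lay above every PBS-treated mouse at both times, and every LPS-treated mouse at ZT13 lay above every one at ZT1. The log2 fold change for LPS was 1.12 ± 0.10 (SE) at ZT1 (adjusted p = 3.55e-05) and 2.06 ± 0.05 at ZT13 (adjusted p = 7.18e-12), a 2.17-fold and a 4.18-fold rise on the log2(CPM + 0.5) scale used for every test.

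Col4a2 supplies the remaining chain of the trimer. At ZT1 it measured 78.6, 88.0 and 85.6 CPM after PBS and 149.9, 124, 139, 139 and 119 CPM after LPS. At ZT13 the values were 64.9, 62.3 and 69.7 CPM after PBS, and 175, 192, 193, 209.8 and 208 CPM after LPS. The ordering of the 4 groups was that of Col4a1, again with no overlap between any of them. Its log2 fold change for LPS was 0.67 ± 0.07 at ZT1 (adjusted p = 0.000109) and 1.57 ± 0.06 at ZT13 (adjusted p = 3.05e-10). In these samples of whole tissue, a change in the number of cells of a type and a change in RNA per cell cannot be told apart.

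**Figure D3:**
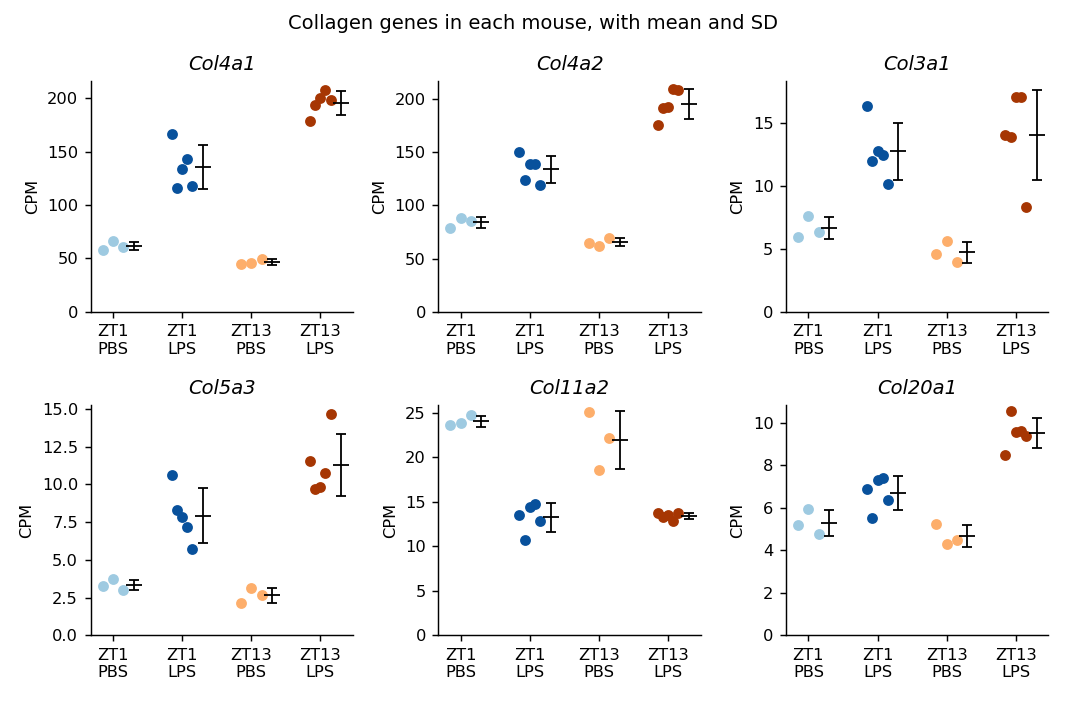
CPM of 6 collagen genes in each of the 16 mice by group (points), with the group mean and SD (black). Col4a1 and Col4a2 form 4 separate levels, lowest in ZT13 PBS and highest in ZT13 LPS, whereas Col11a2 falls to between 10.7 and 14.8 CPM with LPS at both times.

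Whether the LPS response itself depended on TOD was tested by the TOD × treatment interaction over all 16 samples. Of the 43 collagens 2 were called, both higher, Col4a2 and Col4a1, against 0.159% of all genes called and 0.122% called higher. The response was larger at ZT13 by 0.90 ± 0.10 on the log2 scale for Col4a2 (adjusted p = 0.00075) and by 0.94 ± 0.13 for Col4a1 (adjusted p = 0.00378). Both calls held when any of the 16 mice was left out, with estimates of 0.86 to 0.95 for Col4a2 and 0.89 to 1.02 for Col4a1. The next members by adjusted p were Col20a1, a FACIT chain (0.64 ± 0.15, adjusted p = 0.114), and Col5a3 (0.78 ± 0.23, adjusted p = 0.23), neither of which passed. The interval of the difference for Col20a1 was 0.33 to 0.96. At an unadjusted p under 0.05, 8 members of 43 and 1745 genes of 18859 would have been counted. Estimates were above 0 for 33 of the 43 members, including 11 of 11 fibrillar chains, and for 10178 of the 18859 genes.

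The 2 sides of that interaction could be read in the comparisons between times. Among LPS-treated mice, 1 collagen of 43 was called, Col4a2, higher at ZT13 by 0.54 ± 0.06 (adjusted p = 0.0159), where 0.0212% of all genes were called and 0.0106% called higher. Col4a1 was higher by the same 0.54 ± 0.08 but had an adjusted p of 0.0634. By the exact permutation test of the 5 against 5 mice, both had p = 0.00794, the smallest that it can give. The Col4a2 call was lost without ZT1 LPS replicate 3 (adjusted p = 0.0526), ZT13 LPS replicate 3 (0.0782) or ZT13 LPS replicate 4 (0.0824), and Col4a1 was called without ZT1 LPS replicate 1 (0.00187) or 2 (0.0454). Col20a1 was next, with 0.48 ± 0.09 and an adjusted p of 0.0852.

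Among PBS-treated mice the order of the times was opposite. Col4a1 was lower at ZT13 by 0.40 on the log2 scale (log2 fold change -0.40 ± 0.06, adjusted p = 0.0306) and Col4a2 had a log2 fold change of -0.36 ± 0.06 (adjusted p = 0.0337). These were the only 2 collagens called, against 0.52% of all genes called and 0.217% called lower. The 3 mice of each PBS group did not overlap for either gene, and the exact permutation test of 3 against 3 gave p = 0.10, the smallest possible. The calls rested on 5 of the 6 mice, since both were lost when any mouse other than ZT13 PBS replicate 3 was left out (adjusted p up to 0.150 for Col4a1 and 0.154 for Col4a2). Of the 11 fibrillar estimates between PBS groups 10 were below 0, as were 9473 of 18859 over all genes. None of the 11 was called in limma, and 3 had an unadjusted p under 0.05, as did 2543 of all genes.

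**Figure D4:**
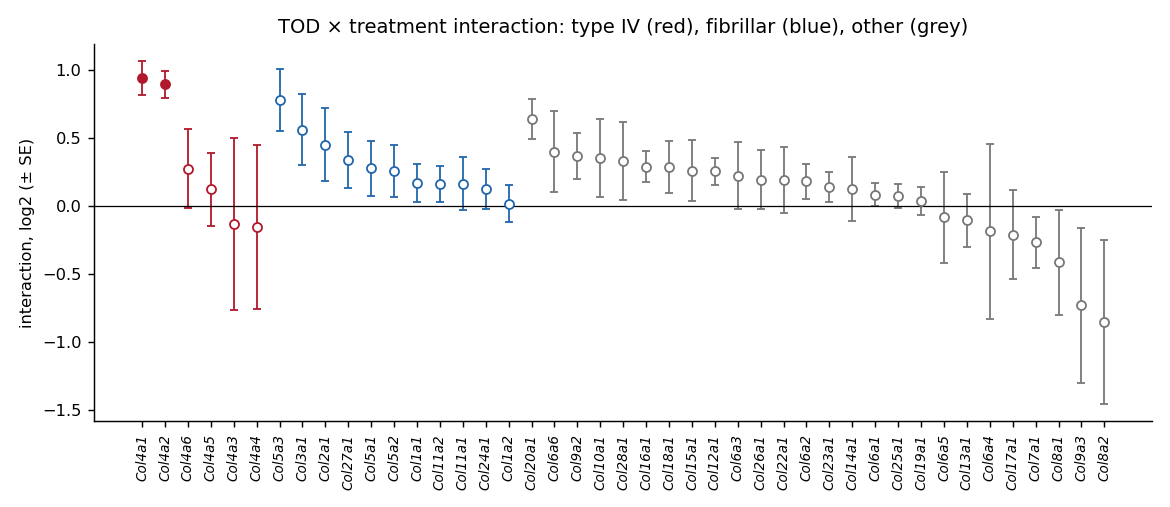
TOD × treatment interaction on the log2 scale (y axis, ± SE) for the 43 collagen genes tested, ordered within type IV (red), fibrillar (blue) and other (grey), filled where called. Col4a1 and Col4a2 have estimates of 0.94 and 0.90 with narrow errors, and the 11 fibrillar estimates are above 0 with none called.

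The composition of the family by RNA also shifted with LPS. Col4a1 and Col4a2 together were 22.6% ± 0.74 (SD, n = 3) of all collagen CPM in ZT1 PBS and 34.6% ± 1.6 (n = 5) in ZT1 LPS. In ZT13 PBS the share was 19.0% ± 1.0 (n = 3), and in ZT13 LPS 42.0% ± 1.6 (n = 5). Per kilobase of exon, Col6a1 ranked first in ZT1 PBS with 13.6 CPM per kb, followed by Col4a2 with 12.7 and Col4a1 with 8.26. In ZT13 LPS Col4a2 (29.6 CPM per kb) and Col4a1 (26.2) ranked above Col6a1 (18.3). The ratio of Col4a1 to Col4a2 in CPM per kb was 0.627 to 0.666 in ZT1 PBS and 0.604 to 0.650 in ZT13 PBS. After LPS it was 0.832 to 0.986 at ZT1 and 0.843 to 0.922 at ZT13, so that the ranges of LPS and PBS did not overlap.

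Markers of endothelial cells moved with these chains in most comparisons. Of 13 endothelial genes, 10 were called higher and 1 lower (Flt1) with LPS at ZT1, 12 higher at ZT13, 2 lower in ZT13 PBS against ZT1 PBS (Flt1 and Cldn5), and 5 higher for the interaction (Pecam1, Egfl7, Flt1, Cdh5 and Cldn5). Over all genes tested, 11.1% were called higher and 5.15% lower at ZT1, and 19.2% higher at ZT13. Between PBS groups 0.217% were called lower, and for the interaction 0.122% higher. In ZT13 LPS against ZT1 LPS 0 of the 13 were called (median log2 fold change 0.27), beside 0.0212% of all genes. The summed level of the endothelial markers was 225 to 235 CPM in ZT1 PBS, 289.8 to 388 in ZT1 LPS, 173 to 204 in ZT13 PBS and 378 to 408 in ZT13 LPS. The CPM of Col4a1 and Col4a2 together, divided by this sum, was 0.634 ± 0.045 in ZT1 PBS and 0.776 ± 0.050 in ZT1 LPS, and 0.596 ± 0.029 in ZT13 PBS and 1.005 ± 0.073 in ZT13 LPS (SD, n = 3 and 5). This ratio was higher in every LPS-treated mouse than in every PBS-treated mouse at the same time, 0.726 to 0.831 against 0.583 to 0.670 at ZT1 and 0.930 to 1.11 against 0.575 to 0.630 at ZT13. Mural markers, of pericytes and smooth muscle, had 2 of 11 called higher at ZT1 and 5 at ZT13, with a sum of 166 to 225 CPM over all samples. The part of these cells in the result was not tested.

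The other type IV chains were at low levels. Col4a3, Col4a4, Col4a5 and Col4a6, whose trimers belong to specialised basement membranes such as that of the kidney glomerulus, had group means of 1.05 to 5.31 CPM, and 0 of the 4 were called in any of the 5 comparisons in limma, nor had 1 of them an unadjusted p under 0.05. For Col4a5, the highest of them, the estimate for LPS was -0.32 ± 0.17 at ZT1 (adjusted p = 0.239) and -0.20 ± 0.18 at ZT13 (adjusted p = 0.457). That for Col4a6 was -0.31 ± 0.16 and -0.03 ± 0.22, for Col4a3 0.19 ± 0.50 and 0.06 ± 0.28, and for Col4a4 0.29 ± 0.46 and 0.14 ± 0.28. At ZT1 the interval of the estimate was -0.91 to 1.28 for Col4a3 and -0.73 to 1.31 for Col4a4. Both intervals include the ZT1 estimates of Col4a1 and Col4a2.

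Col4a3 and Col4a4 varied more within groups than between them. In the PBS-treated mice at ZT1 Col4a4 measured 0.542, 3.65 and 0.505 CPM, and the choroid plexus sum in the same mice was 12.2, 918 and 19.4 CPM. At ZT13, Col4a4 was 2.69, 0.694 and 1.66 CPM after PBS, with choroid plexus sums of 971, 14.4 and 549.7 CPM. High and low mice were thus the same for the gene and for the markers. A fit chosen after this had been seen gave each gene its 4 group means and a slope on the choroid plexus score, the mean of log2(CPM + 0.5) over Ttr, Folr1, Kl, Clic6, Kcne2 and Aqp1. Of the 43 collagens 6 were called, all with a positive slope, and 0.536% of all genes were called with a positive slope. Col9a3 (0.41 ± 0.03, adjusted p = 1.32e-08), Col4a3 (0.44 ± 0.04), Col4a4 (0.42 ± 0.04) and Col8a2 (0.42 ± 0.04) had the steepest slopes, a rise of 1.33- to 1.36-fold for every doubling of the markers. Col8a1 (0.25 ± 0.03) and Col18a1 (0.11 ± 0.02, adjusted p = 0.0394) followed.

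**Figure D5:**
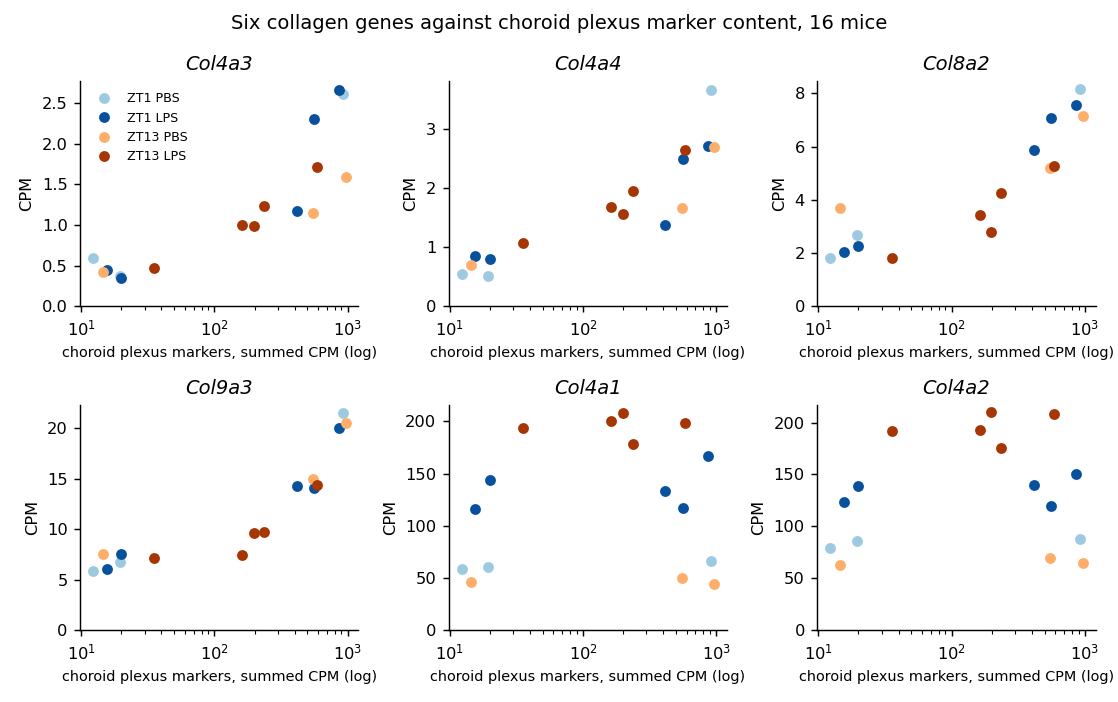
CPM of 6 collagen genes (y axis) against the summed CPM of 6 choroid plexus markers (x axis, log scale) in 16 mice, coloured by group. Col4a3, Col4a4, Col8a2 and Col9a3 climb with the markers whatever the group, whereas Col4a1 and Col4a2 separate by group at any marker level.

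The choroid plexus sums of the 4 groups overlapped, with values of 12.2 to 918 CPM in ZT1 PBS, 15.5 to 862 in ZT1 LPS, 14.4 to 971 in ZT13 PBS and 35.5 to 589 in ZT13 LPS. With the score as a covariate, the interaction was 0.97 for Col4a1 (adjusted p = 0.00286) and 0.93 for Col4a2 (adjusted p = 0.000394). The number of collagens called became 11 at ZT1 and 17 at ZT13. The share of all genes called in this fit was not recorded, so the change in count is not read as particular to collagens. At ZT1, Col4a5 (-0.44 ± 0.12, adjusted p = 0.0332) and Col15a1 (-0.63 ± 0.17, adjusted p = 0.0317) were then among those called, and at ZT13 Col9a3 (-0.42 ± 0.10, adjusted p = 0.00863), Col8a2 (-0.51 ± 0.17, adjusted p = 0.0406) and Col6a6 (0.53 ± 0.18, adjusted p = 0.0482).

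Fibrillar chains did not all move in the same direction. At ZT1 2 of 11 rose and 2 fell, and at ZT13 4 rose and 2 fell, with a summed level of 191.7 ± 19 CPM in ZT1 PBS, 184 ± 21 in ZT1 LPS, 175 ± 5.4 in ZT13 PBS and 196 ± 5.0 in ZT13 LPS (SD, n = 3 and 5). Col3a1 and Col5a3 rose at both times and Col11a2 and Col27a1 fell at both times. Col1a1 and Col2a1 were called at ZT13. The calls were 36.4% of the class at ZT1 and 54.5% at ZT13, beside 16.2% and 28.6% of all genes. In limma 5 of the 11 had an unadjusted p under 0.05 at ZT1 and 10 at ZT13, as did 5716 and 7222 of 18859 genes. The summed level at ZT13 was 169 to 180 CPM after PBS and 188 to 201 CPM after LPS, without overlap.

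Col5a3, a minor chain of type V collagen that co-assembles with type I, measured 3.25, 3.70 and 3.03 CPM after PBS and 10.6, 8.33, 7.83, 7.14 and 5.71 CPM after LPS at ZT1. At ZT13 the values were 2.16, 3.15 and 2.64 CPM after PBS and 11.6, 9.67, 9.81, 10.7 and 14.6 CPM after LPS. Groups did not overlap at either time, and the log2 fold changes were 1.12 ± 0.16 (adjusted p = 0.000888) and 1.90 ± 0.14 (adjusted p = 2.38e-07).

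Col3a1 encodes the chain of type III collagen, the collagen of reticular fibres and vessel walls. It measured 5.92, 7.60 and 6.36 CPM after PBS and 16.3, 11.996, 12.8, 12.4 and 10.2 CPM after LPS at ZT1. At ZT13 it was 4.55, 5.64 and 3.99 CPM after PBS and 14.0, 13.9, 17.1, 17.1 and 8.33 CPM after LPS. All LPS-treated mice were above all PBS-treated mice of the same time. The rise was 0.89 ± 0.13 on the log2 scale at ZT1 (adjusted p = 0.00119) and 1.45 ± 0.19 at ZT13 (adjusted p = 5.46e-05). Relative to Col1a1, its ratio in CPM per kb was 0.130 ± 0.012 in ZT1 PBS and 0.229 ± 0.034 in ZT1 LPS, and 0.113 ± 0.019 in ZT13 PBS and 0.271 ± 0.055 in ZT13 LPS.

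The chains of type I collagen, the main collagen of fibrils, changed little. Estimates for Col1a1 were 0.13 ± 0.11 at ZT1 (adjusted p = 0.488) and 0.30 ± 0.07 at ZT13 (adjusted p = 0.00502), and for Col1a2 0.14 ± 0.11 (adjusted p = 0.423) and 0.16 ± 0.07 (adjusted p = 0.0865). Col2a1, known from cartilage and vitreous, had an estimate of 0.30 ± 0.23 at ZT1 (adjusted p = 0.419) and rose at ZT13 by 0.75 ± 0.15 (adjusted p = 0.00146) from a low level, with means of 0.842 CPM after PBS and 1.77 CPM after LPS. Col5a1, the fibrillar chain with the highest level per kb in all 4 groups except ZT1 LPS, was not called at ZT1 (-0.25 ± 0.16, adjusted p = 0.333) or at ZT13 (0.03 ± 0.08, adjusted p = 0.848). Col5a2 (0.03 and 0.29), Col11a1 (-0.36 and -0.20) and Col24a1 (0.13 and 0.26) were also not called for LPS, with adjusted p-values of 0.0651 to 0.913.

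Col11a2, a chain of type XI collagen, which sits inside cartilage fibrils, fell. It measured 23.6, 23.8 and 24.8 CPM after PBS and 13.5, 10.7, 14.5, 14.8 and 12.8 CPM after LPS at ZT1. At ZT13 it was 25.1, 18.5 and 22.1 CPM after PBS and 13.7, 13.3, 13.5, 12.9 and 13.7 CPM after LPS. No LPS-treated mouse reached the level of a PBS-treated mouse, and the log2 fold change was -0.84 ± 0.10 at ZT1 (adjusted p = 0.000166) and -0.68 ± 0.08 at ZT13 (adjusted p = 3.53e-05). Col27a1, of the cartilage type XXVII collagen, had log2 fold changes of -0.79 ± 0.13 (adjusted p = 0.00189) and -0.45 ± 0.15 (adjusted p = 0.0332), the second of which overlapped between groups and was lost without ZT13 PBS replicate 1 or 3 or ZT13 LPS replicate 1, 3 or 4 (adjusted p of 0.055 to 0.153).

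Markers of meningeal and perivascular fibroblasts, the cells that make most fibrillar collagen in brain, moved both ways. Of 10 such genes, 3 were called higher and 1 lower with LPS at ZT1, and 4 higher and 3 lower at ZT13. Their summed level was 134 to 211 CPM in ZT1 PBS, 148 to 204 in ZT1 LPS, 150.4 to 174 in ZT13 PBS and 141 to 167 in ZT13 LPS. Oligodendrocyte markers had 1 of 5 called lower at ZT1, and 3 lower and 1 higher at ZT13. Over all genes tested, 11.1% were called higher and 5.15% lower at ZT1, and 19.2% and 9.4% at ZT13. The part of either cell type in the fibrillar changes was not tested.

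Among the remaining 27 chains, 2 rose and 1 fell at ZT1 of 26 tested, and 6 rose and 0 fell at ZT13. These calls were 11.5% and 23.1% of the 26, beside 16.2% and 28.6% of all genes. Type VI collagen, which forms beaded filaments next to basement membranes, contributed Col6a1 and Col6a2. Col6a1 measured 63.2, 53.7 and 61.6 CPM after PBS and 78.5, 69.2, 70.5, 75.6 and 78.5 CPM after LPS at ZT1. At ZT13 it was 59.8, 61.8 and 58.8 CPM after PBS and 84.3, 73.4, 78.0, 82.4 and 82.3 CPM after LPS. The groups were separate at both times, with log2 fold changes of 0.32 ± 0.06 (adjusted p = 0.00618) and 0.41 ± 0.05 (adjusted p = 2.17e-05). Col6a2 rose at ZT13 by 0.32 ± 0.09 (adjusted p = 0.0117), from 22.8, 27.1 and 20.6 CPM to 27.8, 27.6, 31.7, 32.2 and 27.7 CPM. That call was lost without ZT13 PBS replicate 3 (adjusted p = 0.0771). At ZT1 the estimate for Col6a2 was 0.14 and it was not called.

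Col18a1, a basement membrane collagen whose end is released as endostatin, measured 6.31, 8.59 and 6.02 CPM after PBS and 11.8, 8.82, 9.10, 9.03 and 9.47 CPM after LPS at ZT1. At ZT13 its values were 7.59, 5.23 and 7.12 CPM after PBS and 10.1, 9.50, 12.6, 12.1 and 12.4 CPM after LPS. PBS and LPS did not overlap. The log2 fold change was 0.74 ± 0.13 at ZT13 (adjusted p = 0.000552) and 0.45 ± 0.13 at ZT1 (adjusted p = 0.0363), and the ZT1 call was lost without ZT1 PBS replicate 1 or 3 or ZT1 LPS replicate 1, 3 or 4 (adjusted p of 0.0527 to 0.158).

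Of the 8 FACIT chains tested 0 were called by limma at ZT1, where 5 had an unadjusted p under 0.05 (5716 of 18859 over all genes), and 3 rose at ZT13. Col20a1 measured 5.18, 5.93 and 4.76 CPM after PBS and 6.90, 5.51, 7.32, 7.39 and 6.34 CPM after LPS at ZT1, where the groups overlapped. At ZT13 it was 5.24, 4.30 and 4.48 CPM after PBS and 8.50, 10.5, 9.56, 9.63 and 9.36 CPM after LPS, with no overlap, a log2 fold change of 0.95 ± 0.10 and an adjusted p of 5.22e-06. Col16a1 was 19.0, 19.4 and 22.1 CPM after PBS and 29.7, 25.1, 26.7, 27.7 and 32.8 CPM after LPS at ZT13, also without overlap (0.48 ± 0.08, adjusted p = 0.000553). Col12a1 was 19.6, 21.7 and 20.3 CPM after PBS and 24.6, 21.1, 24.5, 24.9 and 23.7 CPM after LPS at ZT13, where the groups overlapped (0.20 ± 0.07, adjusted p = 0.032). The Col12a1 call was lost with another scaling and without 5 of the 8 mice in turn, ZT13 PBS replicates 1 and 3 and ZT13 LPS replicates 1, 3 and 4 (adjusted p of 0.0626 to 0.131).

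Col25a1, a transmembrane collagen of neurons, was the only member outside the fibrillar class called lower with LPS in the fits without a covariate. At ZT1 it measured 41.2, 41.4 and 38.5 CPM after PBS and 34.1, 34.9, 33.7, 32.8 and 38.9 CPM after LPS, where 1 LPS-treated mouse lay within the PBS range. The log2 fold change was -0.21 ± 0.06 (adjusted p = 0.041), which was not kept without any of the 3 PBS-treated mice or ZT1 LPS replicate 1, 3 or 4 (adjusted p of 0.0663 to 0.148). Cortical neuron markers had 1 of 7 called lower at ZT1 and 3 at ZT13, beside 5.15% and 9.4% of all genes. The part of neurons in the change was not tested. Of the other 20 chains, Col9a1 was not tested and the rest were called in none of the 5 comparisons fitted without the choroid plexus score. Col15a1, the multiplexin related to Col18a1, was closest at ZT1 (-0.56 ± 0.18, adjusted p = 0.0525) and Col6a6 at ZT13 (0.55 ± 0.20, adjusted p = 0.0505).

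Genes that fold, mature, bind or cleave collagen were read from lists of known partners. Beside the counts in these lists, 11.1% of all genes tested were called higher and 5.15% lower with LPS at ZT1. At ZT13 these shares were 19.2% and 9.4%. Of 22 genes for chain folding, hydroxylation and export, 8 rose and 0 fell with LPS at ZT1, and 9 rose and 0 fell at ZT13, with a median log2 fold change of 0.19 at both times. Serpinh1, the collagen chaperone HSP47, rose by 0.62 ± 0.13 (adjusted p = 0.00684) and 1.10 ± 0.11 (adjusted p = 5.2e-06). Fkbp10, a prolyl isomerase of the endoplasmic reticulum, rose by 0.74 ± 0.15 and 0.97 ± 0.09, and the lysyl hydroxylase Plod1 by 0.62 ± 0.11 and 0.86 ± 0.08. In limma 0 of the 22 were called between times or for the interaction, where 8 between LPS groups, 4 between PBS groups and 3 for the interaction had an unadjusted p under 0.05. Over all 18859 genes these counts were 1998, 2543 and 1745.

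For the 15 genes of maturation and cross-linking outside the cell, 4 rose at ZT1 (median 0.12), and 7 rose and 2 fell at ZT13 (median 0.20). Lox, the copper enzyme that starts cross-links, rose at ZT13 by 1.64 ± 0.22 (adjusted p = 5.74e-05), the procollagen peptidase Adamts14 by 1.04 ± 0.28 at ZT1 and 1.38 ± 0.16 at ZT13, and Sparc, which binds collagen outside the cell, by 0.62 ± 0.07 and 0.85 ± 0.03. Pxdn, the peroxidasin that makes the sulfilimine bond of type IV collagen, had a log2 fold change of -0.31 ± 0.05 in ZT13 PBS against ZT1 PBS (adjusted p = 0.0306). Its values were 114, 109 and 109.5 CPM at ZT1 and 85.2, 87.8 and 95.4 CPM at ZT13, without overlap. The Pxdn call was not examined with a mouse left out.

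Of 12 collagen receptors 11 were tested, and 2 rose at ZT1 (median 0.20) and 4 at ZT13 (median 0.26). Of all genes 11.1% and 19.2% were called higher. Itgb1, the integrin beta 1 shared by the collagen-binding integrins, rose at both times, by 0.45 ± 0.08 and 0.58 ± 0.05. The inhibitory receptor Lair1 rose at ZT1 (0.64 ± 0.19), and Itga11, an alpha chain of such an integrin, at ZT13 (0.44 ± 0.14).

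Enzymes that cleave collagen showed larger changes. Of 5 tested, 3 rose at each time, with a median of 0.57 at ZT1 and 1.71 at ZT13. Mmp14, a membrane-bound collagenase, measured 11.6, 14.6 and 11.2 CPM in ZT1 PBS and 26.4, 14.2, 18.1, 19.8 and 16.3 CPM in ZT1 LPS. At ZT13 it was 7.06, 6.98 and 6.85 CPM after PBS and 22.5, 24.02, 23.9, 27.0 and 22.7 CPM after LPS. The groups overlapped at ZT1 and were far apart at ZT13, and Mmp14 was called for the interaction (1.14 ± 0.19, adjusted p = 0.0159) and, lower, in ZT13 PBS against ZT1 PBS (-0.78 ± 0.11, adjusted p = 0.0228). Neither Mmp14 call was examined with a mouse left out. Mmp8, a collagenase of neutrophils, was at or near 0 CPM in all 6 PBS-treated mice, at 0.940 to 3.45 CPM in ZT1 LPS and at 4.30 to 11.8 CPM in ZT13 LPS. Mmp9, a gelatinase, rose by 2.06 ± 0.30 and 3.48 ± 0.22.

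Of 11 other proteins of the basement membrane, 6 rose at ZT1 (median 0.29) and 7 at ZT13 (median 0.44), and 0 were called lower. Hspg2, the heparan sulphate proteoglycan perlecan, rose by 1.205 ± 0.18 (adjusted p = 0.000928) and 2.22 ± 0.10 (adjusted p = 2.95e-09), Nid1, which links laminin to type IV collagen, by 0.79 ± 0.07 and 1.29 ± 0.07, and the laminin chain Lama5 by 0.89 ± 0.13 and 1.26 ± 0.13. In limma 0 of the 11 were called between times or for the interaction, and 6 between LPS groups, 1 between PBS groups and 4 for the interaction had an unadjusted p under 0.05, beside 1998, 2543 and 1745 of all 18859 genes.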

How the data were processed

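The authors deposited CPM for each gene and sample, scaled by library total, from total RNA depleted of ribosomal RNA, and per the labels the reads were processed with bcl2fastq and DRAGEN 4.0.3-8 on GRCm38. Repeated gene rows (287) were removed. Groups were taken from sample titles, because the treatment field contradicted the titles for 12 of 16 samples. The most frequent value above 0 in each sample was taken as the CPM of 1 read and so gave the depth. Between 80.7% and 83.0% of a sample's values below 20 reads were whole to within 0.01 read, so no count test was run.

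The 18859 genes that reached 1 CPM in 3 or more samples were tested on log2(CPM + 0.5), a scale that understates changes of low genes, with limma 3.58.1 (R 4.3.3), an intensity trend and Benjamini-Hochberg adjustment over all genes. Pairwise comparisons used their 2 groups, and the interaction used 4 group means. A gene was called at an adjusted p under 0.05. Standard errors are those of limma. Exact permutation tests were two-sided on the absolute difference of means and cannot go below 0.0179 for 5 mice against 3. The fits were tested on simulated data.

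The members, classes, partner lists and markers were chosen with earlier results of these data known. Named with values were all type IV and fibrillar chains, other chains called in any comparison, and the 2 members with the smallest adjusted p in each time comparison and the interaction. Values per mouse were given for Col4a1, Col4a2 and up to 3 called members per class. Partner genes named were those called between times or for the interaction and up to 3 per list otherwise. Coordinates, exon length (the union of exons) and reading frames (the longest per gene) came from GENCODE M21, promoters from RefSeq. Tables were made with Python 3.11.15, pandas 2.3.3 and matplotlib 3.10.9. Alternatives were pseudocounts of 0.1 and 1, other filters, median-of-ratios and quantile scaling, 1 fit over the 16 mice, weights for sample quality, a block for the replicate number, no intensity trend and leaving out each mouse. The choroid plexus covariate was added after the data were seen.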

Additional observations from a re-analysis of the deposited data

Results flagged for a closer look

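The responses of Col4a1 and Col4a2 to LPS differed between ZT1 and ZT13 by the test of the difference itself, with interactions of 0.94 and 0.90 on the log2 scale, as described above. In addition, each of the 88 groups of 5 LPS-treated mice, 44 genes at 2 times, was examined for a mouse far from the other 4 by Dixon's criterion, which chance meets in about 1 of 20 groups, and 6 were found. Col1a2 in ZT1 LPS had a highest mouse at 41.6 CPM and Col18a1 a highest mouse at 11.8 CPM, both replicate 1. In the same group Col15a1 had a lowest mouse at 2.42 CPM, Col6a5 at 1.01 CPM and Col6a6 at 0.600 CPM. In ZT13 LPS, Col9a2 had a highest mouse at 5.59 CPM. The lowest mouse of ZT1 LPS for Col15a1, Col6a5 and Col6a6 was replicate 2, which also had the lowest collagen sum of that group, 680 CPM, and the lowest endothelial marker sum, 289.8 CPM. Replicate 1 had the highest collagen sum, 880.2 CPM. The cause of these values was not tested.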

How the results depend on the processing

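The 2 interaction calls, Col4a1 and Col4a2, were made under all alternatives run. The counts called for LPS at ZT1 (9) and ZT13 (14) stayed within 1.5 times, at 6 to 12 and 11 to 21 including leaving out each mouse. No change called for a named collagen gene turned direction, and the partner genes were not examined under the alternatives. Of 935 single-gene values of collagens under alternatives, 62 lost a call and 13 gained one. The time comparisons rested on few genes. Between LPS groups the 1 call became 0 when all genes with any CPM were tested, 0 with no trend, 0 with the replicate block, and 3 with a fit of all 16 samples or with sample quality weights. It was 0 to 4 when each mouse was left out. Between PBS groups the 2 calls became 0 when all genes with any CPM were tested, 0 with a fit of all 16 samples, 0 with no trend and 1 with the replicate block, and were 0 to 2 when each mouse was left out. Testing all genes with any CPM adds genes both to the adjustment and to the intensity trend. The cause of these changes in the number of calls was not tested. Same-numbered mice had residual correlations of -0.20 to 0.33. The highest was that of replicate 5 between the LPS groups, and all others were below 0.1. Whether the numbers mark mice handled together cannot be told from these values. With the replicate block 8 collagens were called at ZT1, 18 at ZT13 and 2 for the interaction. For the counts in this paragraph the share of all genes called under each alternative is not given. Changes in count are therefore not read as particular to collagens. Depth limits members near 1 CPM, such as Col4a3, Col2a1 and Col6a6, at which 1 CPM was about 20 to 29 reads.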
